A study of Mus musculus with 4 samples.

Results

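The genes described here are the sugar, amino acid and peptide transporters of the mouse small intestine (SI). They were taken by symbol as every gene of the families Slc1a, Slc2a, Slc3a, Slc5a, Slc6a, Slc7a, Slc15a, Slc36a, Slc38a and Slc43a whose name ends in a plain number, which gave 89 of the 56748 genes listed. Of these, 64 had enough counts to be tested, among 16094 genes tested in all. RNA was sequenced from the SI of wild-type (p53+/+) and p53-/- mice, with 2 libraries per genotype. Tissue was taken 1 day after TBI (total-body irradiation from a caesium source) at 12 Gy. The question was which genes differ between the genotypes after irradiation. Mice were from the Jackson Laboratory, 8 to 12 weeks old, and matched for age and sex. The p53-/- mice lack p53 in every cell rather than in the epithelium alone, all 4 libraries are from irradiated mice, and the RNA is from whole tissue. The libraries are named by the numbers of their columns in the deposited table, 7 and 8 for p53+/+ and 9 and 10 for p53-/-, and values of a gene are given in that order.

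Digested food crosses the SI epithelium by carriers in series. In the brush border, the membrane that faces the lumen, cotransporters driven by sodium or protons take up glucose, amino acids and short peptides. In the basolateral membrane, which faces the blood, facilitative carriers and exchangers let them out. Several amino acid carriers work as heterodimers in which a heavy chain of the Slc3a family brings a light chain of the Slc7a family to the membrane. Other members of the same families do not serve absorption, and carry neurotransmitters, vitamins, urate, inositol or the contents of lysosomes.

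The libraries held 15005479 to 22173164 counts, and spread within a genotype exceeded counting error (chi-square over its degrees of freedom 52.8 in p53+/+, 77.3 in p53-/-). Whether they came from separate mice is not in the labels, although the methods describe data points as biological replicates; p-values measure the spread between these libraries. Trp53 was at 57.7 and 47.1 CPM (counts after scaling by TMM to a shared library size) in p53+/+ and 19.8 and 22.5 CPM in p53-/- (edgeR adjusted p = 0.0602). Marker lists differed between libraries as well. The summed level of 8 epithelial markers was 24792 and 19298 CPM in p53+/+ against 14825 and 13143 CPM in p53-/-. Of these, 8 of 8 were fitted lower, as were 8165 of the 16094 genes tested in all. Smooth muscle markers summed to 422 and 3963 CPM in p53+/+ and 902 and 634 CPM in p53-/-, so library 8 stood apart. B cell markers summed to 1.05, 1.82, 21.3 and 386 CPM, with 5 of 5 separated higher in p53-/- and Pax5 at 0 in both p53+/+ libraries. T cell markers summed to 2.54, 3.44, 20.99 and 45.7 CPM, with 4 of 4 separated higher. Among all genes tested, 26.4% were separated higher and 24.4% lower. Ileal markers summed to 8501, 4487, 3256 and 3691 CPM, with 5 of 5 fitted lower in p53-/- and 4 separated lower. Fabp6, the most counted of them, was at 5483, 1836, 1639 and 2072 CPM and overlapped. Markers of the proximal segment summed to 37.1 and 24.6 CPM in p53+/+ and 101 and 87.7 CPM in p53-/-. Most of that sum was Slc40a1, at 32.4 and 21.2 CPM in p53+/+ and 92.0 and 73.8 CPM in p53-/-. All 4 tested were separated higher (median log2 difference 1.54), and the untested Pdx1 had at most 6 counts in a library. Neither the part of cell composition nor that of the piece of SI taken was tested for any transporter, and in bulk RNA fewer cells of a type and less RNA per cell cannot be told apart.

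No transporter passed an adjusted p of 0.05 in edgeR's quasi-likelihood test, a threshold that 0.491% of all tested genes passed. Of the 64 tested, 10 had an unadjusted p under 0.05 and were higher in p53-/-, which is 15.6% beside 10% of all genes. Another 8 were lower at that p, 12.5% beside 7.92% of all genes. The p53-/- libraries were both above the p53+/+ libraries for 19 transporters (29.7%, against 26.4% of all genes) and both below them for 16 (25.0%, against 24.4%), and 29 overlapped. The median log2 fold change (p53-/- over p53+/+) was 0.11 over the transporters and -0.01 over all genes. DESeq2 called 12 of the 64, or 18.8% beside 9.16% of all genes. It placed Slc15a3, Slc43a2, Slc5a8, Slc6a4 and Slc7a1 higher in p53-/-, and Slc15a1, Slc2a9, Slc3a2, Slc5a11, Slc6a19, Slc6a6 and Slc7a15 lower. The likelihood ratio test of edgeR called 5 (7.81%, against 8.05% of all genes), and without a filter on low counts the quasi-likelihood test called 17 of 82 (20.7%, against 7.88% of all genes).

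**Figure D1:**
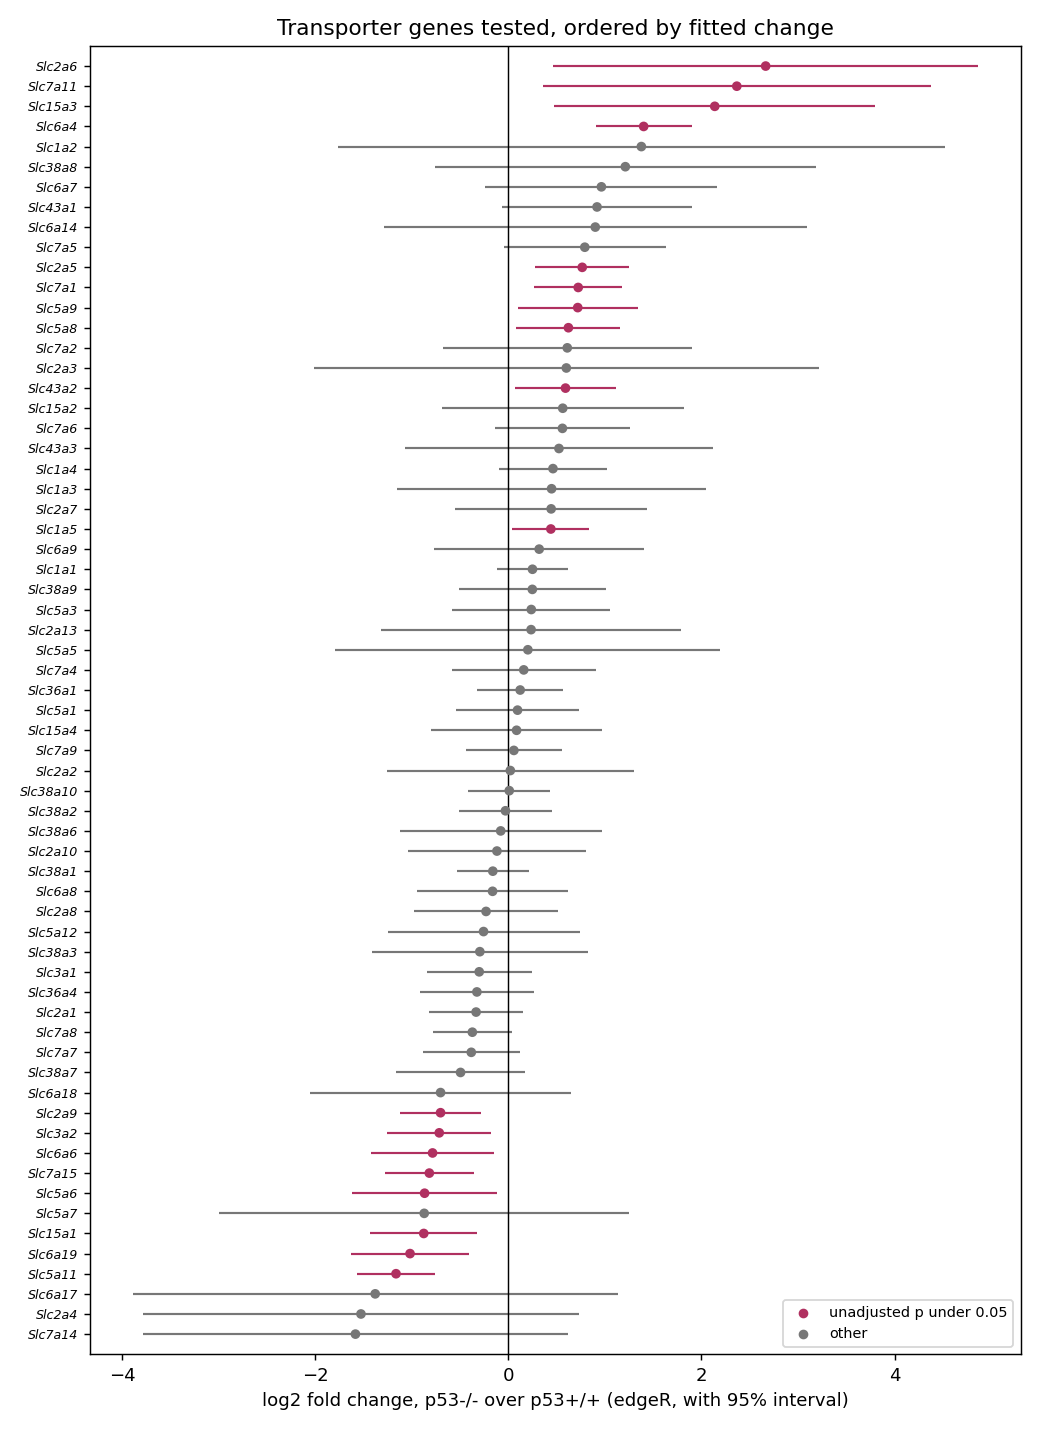
The log2 fold change of each of the 64 transporter genes tested, p53-/- over p53+/+, from edgeR, with its 95% interval as a line. Genes with an unadjusted p under 0.05 are coloured, and at an adjusted p of 0.05 none was called. The fitted values run from -1.58 to 2.66.

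Slc5a1, the sodium-driven glucose and galactose carrier of the brush border, was the most abundant transporter per kilobase of exon in each of the 4 libraries. Its levels were 1070.3 and 1204.9 CPM in p53+/+ and 1315 and 1115 CPM in p53-/-. The genotypes overlapped, and the fitted log2 fold change was 0.10 (95% interval -0.54 to 0.73, edgeR adjusted p = 0.893). Slc2a5, which takes up fructose, was at 16.3 and 18.2 CPM in p53+/+ and at 29.9 and 28.8 CPM in p53-/-. The groups did not overlap, with a log2 fold change of 0.77 (95% interval 0.28 to 1.25), but the edgeR adjusted p was 0.147. Slc2a2, the basolateral exit carrier for glucose and fructose, was low at 15.4, 5.64, 9.73 and 11.6 CPM. The genotypes overlapped, libraries 7 and 8 held its highest and lowest values, and the 95% interval of the log2 fold change ran from -1.26 to 1.30.

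Slc15a1, the proton-driven carrier of di- and tripeptides in the brush border, was lower in p53-/-. It was at 370 and 465 CPM in p53+/+ and 246 and 209 CPM in p53-/-, 0.545 of the p53+/+ mean. The log2 fold change was -0.88 (SE 0.221, 95% interval -1.43 to -0.32). With edgeR its adjusted p was 0.147, and over the alternative settings the adjusted p ran from 0.00144 (DESeq2) to 0.752.

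Among 7 carriers of amino acids in the brush border, Slc6a19 had the lowest adjusted p. Slc6a19 takes up most neutral amino acids from the lumen with sodium. It was at 935 and 1010 CPM in p53+/+ and at 537 and 423 CPM in p53-/-, with no overlap. The log2 fold change was -1.02 (SE 0.242, 95% interval -1.62 to -0.41, edgeR adjusted p = 0.135), and over the alternatives the adjusted p ran from 2.68e-05 to 0.71. Over the 8 epithelial markers the median log2 fold change was -0.67 and over the 5 ileal markers -0.63, and the part of either in the levels of Slc6a19 and Slc15a1 was not tested.

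The heterodimer that takes up cystine and cationic amino acids consists of Slc3a1, its heavy chain, and Slc7a9, its light chain. Slc3a1 was at 472 and 427 CPM in p53+/+ and 404 and 325 CPM in p53-/-, without overlap but with a log2 fold change of only -0.30 (95% interval -0.85 to 0.24). Slc7a9 was at 331, 368, 387 and 341 CPM, and the genotypes overlapped (log2 fold change 0.06, 95% interval -0.44 to 0.56). Both amino acid carriers of the Slc1a family in this group were higher in both p53-/- libraries. Slc1a1, a carrier of glutamate and aspartate, was at 75.5 and 77.5 CPM against 91.8 and 90.1 CPM (log2 fold change 0.25, edgeR adjusted p = 0.448). Slc1a5, a glutamine exchanger, was at 69.2 and 60.3 CPM against 85.3 and 90.4 CPM (log2 fold change 0.44, edgeR adjusted p = 0.243).

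Slc6a14, a carrier of both neutral and cationic amino acids, turned on 1 library. It was at 27.4 CPM in library 7 and 200.2 CPM in library 8, against 278 and 147 CPM in p53-/-. The log2 fold change was 0.90 with an SE of 0.873, and without library 8 it was 2.95 (edgeR adjusted p = 0.0228), the lowest of its 4 adjusted p-values with a library left out, which reached 0.936. Slc36a1, which takes up small amino acids with protons, was at 30.6, 34.3, 38.1 and 32.5 CPM and overlapped. As a group, 2 of the 7 were separated higher (28.6%, against 26.4% of all genes), 2 separated lower (28.6%, against 24.4%) and 3 overlapped. Their median log2 fold change was 0.12.

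**Figure D2:**
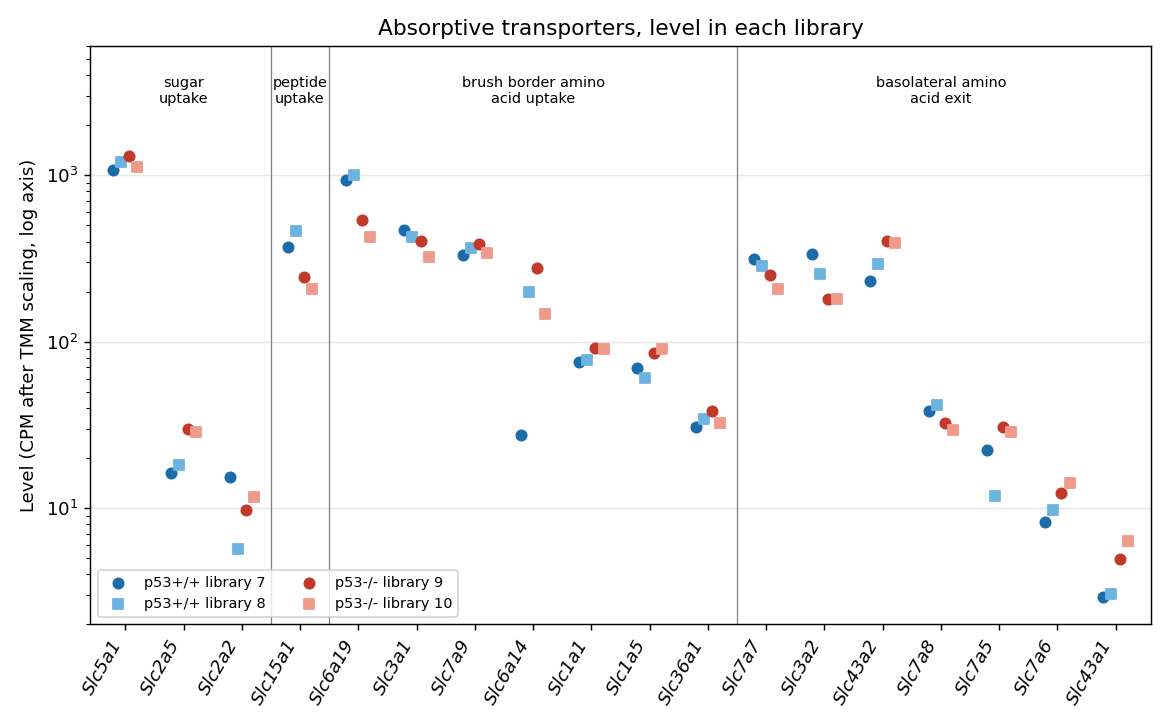
Level of each absorptive transporter in each of the 4 libraries, in CPM after TMM scaling on a log axis, grouped by the place of the carrier in the epithelium; each point is 1 library. Slc6a19 and Slc15a1 lie lower in both p53-/- libraries, Slc2a5 and Slc43a2 higher, and Slc5a1 and Slc7a9 overlap.

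All 7 carriers of amino acid exit had libraries that separated by genotype, 4 of them higher (57.1%, against 26.4% of all genes) and 3 lower (42.9%, against 24.4%) in p53-/-, although none was called. The heavy chain Slc3a2 was at 339 and 255 CPM in p53+/+ and 181 and 180.3 CPM in p53-/- (log2 fold change -0.72, SE 0.214, edgeR adjusted p = 0.186). Among its light chains in the basolateral membrane, Slc7a7 and Slc7a8 were lower as well. Slc7a7, which exchanges cationic for neutral amino acids, was at 316 and 285 CPM against 252 and 208 CPM (log2 fold change -0.38, adjusted p = 0.395 in edgeR). Slc7a8, an exchanger of neutral amino acids, was at 38.2 and 41.9 CPM against 32.3 and 29.6 CPM (log2 fold change -0.37, adjusted p = 0.317 in edgeR).

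The other light chains of Slc3a2 in this group were higher. Slc7a5, an exchanger of large neutral amino acids that proliferating cells also use, was at 22.5 and 11.9 CPM against 30.8 and 28.7 CPM. Its log2 fold change was 0.79 (edgeR adjusted p = 0.300), and 1.33 without library 7 (adjusted p = 0.0497, the lowest of 4 with a library left out, which ran to 0.797). Slc7a6 was at 8.23 and 9.73 CPM against 12.3 and 14.2 CPM (log2 fold change 0.56), and its opposite-strand neighbour Slc7a6os was at 32.1, 30.2, 24.2 and 25.9 CPM. The strand setting of the counting is not given in the sources used here, so reads shared by this pair cannot be told apart. The uniporters Slc43a1 and Slc43a2 need no heavy chain and let out large neutral amino acids. Slc43a2 was at 233 and 293 CPM in p53+/+ and 402 and 390.3 CPM in p53-/-, a log2 fold change of 0.59 (95% interval 0.07 to 1.12, edgeR adjusted p = 0.236). Slc43a1 was far lower, at 2.91 and 3.05 CPM against 4.91 and 6.37 CPM (log2 fold change 0.92, edgeR adjusted p = 0.304). The median log2 fold change of these 7 was 0.56.

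Ratios of levels per kilobase, which do not depend on library size, describe the balance within pairs. Slc3a1 stood at 1.68 and 1.37 times Slc7a9 in p53+/+ and at 1.23 and 1.12 times in p53-/-. Slc3a2 was at 15.8 and 22.5 times Slc7a5 in p53+/+ but 6.18 and 6.60 times in p53-/-. Against the sum of its 5 light chains measured here (Slc7a5, Slc7a6, Slc7a7, Slc7a8 and Slc7a11), Slc3a2 was at 0.865 and 0.724 in p53+/+ and 0.547 and 0.636 in p53-/-. In the basolateral membrane, Slc43a2 was at 3.04 and 3.48 times Slc7a8 in p53+/+ and 6.20 and 6.57 times in p53-/-. Slc5a1 was at 1.40 and 1.46 times Slc6a19 in p53+/+ and at 2.99 and 3.22 times in p53-/-. None of the ratios was tested, since the pairs were chosen with the levels known. Of these ratios and those of Slc3a2 to its other light chains, only that of Slc3a2 to Slc7a8 overlapped between genotypes. Among all genes tested, 26.4% were separated higher and 24.4% lower, and no such share was worked out for ratios.

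**Figure D3:**
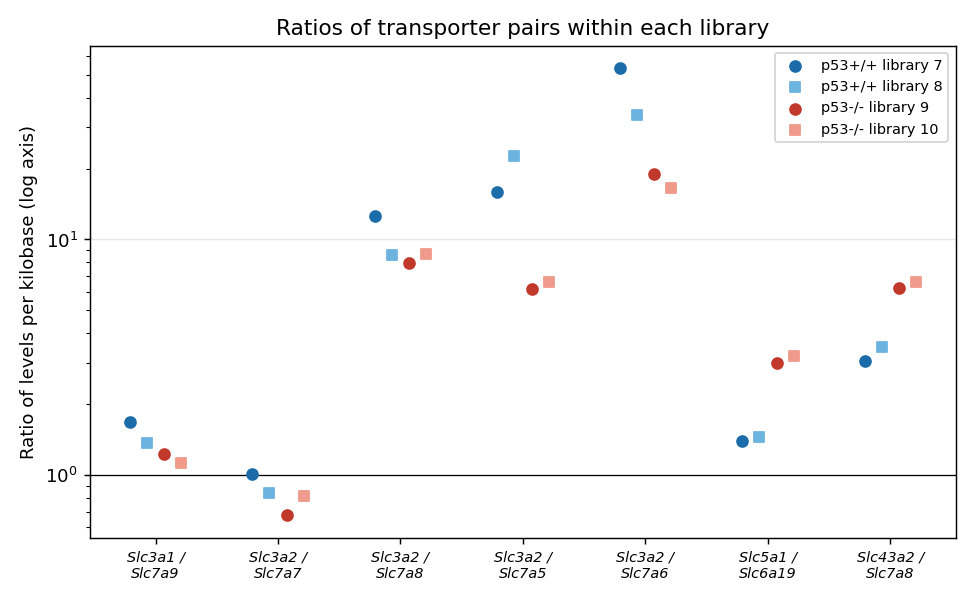
Ratio of the levels per kilobase of 2 transporters within each library, on a log axis, with 1 point for each of the 4 libraries. The ratio of Slc5a1 to Slc6a19 runs from 1.40 to 1.46 in p53+/+ and from 2.99 to 3.22 in p53-/-.

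The share of the summed transporter level per kilobase that each gene took was uneven. The 10 most abundant members took 84.2, 82.1, 81.2 and 78.8% of it in libraries 7 to 10. Slc5a1 took 16.0 and 18.0% in p53+/+ and 19.98 and 20.5% in p53-/-. Slc6a19 took 11.5 and 12.4% in p53+/+, and 6.69 and 6.37% in p53-/- (rank 4 and 2 by level in p53+/+, and rank 5 and 6 in p53-/-). The creatine carrier Slc6a8, which the naming rule did not choose, was at 1103 and 773 CPM against 985 and 689.6 CPM and overlapped (log2 fold change -0.16). At the other end, 29 of the 89 genes were under 1 CPM on average in p53+/+, and 14 were over 100 CPM.

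The facilitative sugar carriers outside the absorptive route were low in the SI. In each direction, 1 of 9 tested had an unadjusted p under 0.05 (11.1% each, against 10% of all genes higher and 7.92% lower). Slc2a6, a sugar carrier of lysosomes, was at 0.619 and 1.10 CPM in p53+/+ and at 1.88 and 9.10 CPM in p53-/-. It had the largest fitted difference of the 64, a log2 fold change of 2.66 (95% interval 0.46 to 4.87, edgeR adjusted p = 0.215), but library 10 set its size: without it the log2 fold change was 1.17. Slc2a9, the urate carrier, was at 40.0 and 38.9 CPM in p53+/+ and 25.4 and 23.1 CPM in p53-/-, with a log2 fold change of -0.70 (95% interval -1.12 to -0.28, edgeR adjusted p = 0.136). The spread within each genotype was small beside that difference. Slc2a1, the carrier of basal glucose uptake, was at 33.4, 32.4, 29.1 and 23.2 CPM (log2 fold change -0.33, edgeR adjusted p = 0.443).

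Slc5a11, a sodium-driven carrier of myo-inositol, had the lowest adjusted p of the 64. It was at 60.4 and 52.3 CPM in p53+/+ and 24.8 and 25.5 CPM in p53-/-. The groups lay far apart relative to their spread, at 0.447 of the p53+/+ mean, with a log2 fold change of -1.16 (SE 0.161, 95% interval -1.57 to -0.76). The edgeR adjusted p of 0.0578 missed the threshold, and the alternatives ran from 1.7e-05 with DESeq2 to 0.43. Slc5a6, which takes up biotin and pantothenate, was at 81.6 and 46.8 CPM against 31.1 and 39.3 CPM (log2 fold change -0.87, edgeR adjusted p = 0.230). Its log2 fold change was -1.22 without library 8, -0.40 without library 7, -0.71 without library 9 and -0.98 without library 10. Slc5a8 and Slc5a9 were named after their values were seen. Slc5a8, a carrier of short-chain monocarboxylates, was at 349 and 309 CPM in p53+/+ and 553 and 459.8 CPM in p53-/- (log2 fold change 0.62, edgeR adjusted p = 0.230), and Slc5a9, a mannose carrier, was at 25.0 and 19.7 CPM against 43.0 and 30.5 CPM (log2 fold change 0.72, edgeR adjusted p = 0.230). Of the 8 tested in this group, 2 had an unadjusted p under 0.05 in each direction (25% each, against 10% of all genes higher and 7.92% lower).

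Slc15a3, a peptide and histidine carrier of lysosomes that macrophages express, was at 1.24 and 4.09 CPM in p53+/+ and 8.33 and 15.1 CPM in p53-/-. The log2 fold change was 2.14 (SE 0.663, edgeR adjusted p = 0.196), and without library 8 it was 3.23 (adjusted p = 0.027, with 0.138 to 0.819 when another library was left out). Macrophage markers summed to 16.3, 48.4, 63.8 and 78.5 CPM in the 4 libraries, and their part in the level of Slc15a3 was not tested. Its relatives Slc15a2 and Slc15a4 overlapped between genotypes.

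The 3 tested carriers of cationic amino acids and cystine were all higher in both p53-/- libraries (100%, against 26.4% of all genes), with a median log2 fold change of 0.72. Slc7a2, named here after its values were seen, was at 1.30 and 2.34 CPM in p53+/+ and 3.11 and 2.44 CPM in p53-/-. Its log2 fold change was 0.61 (95% interval -0.68 to 1.90). Slc7a11, the light chain that exchanges cystine for glutamate, was at 1.24 and 1.49 CPM in p53+/+ and 2.50 and 11.6 CPM in p53-/-. Its log2 fold change was 2.37 (95% interval 0.36 to 4.37, edgeR adjusted p = 0.223) and 0.92 without library 10. Slc7a1, the widely expressed carrier of arginine and lysine, was outside the naming rule and was at 44.9 and 35.1 CPM against 69.2 and 62.8 CPM. Its log2 fold change was 0.72 (SE 0.183, edgeR adjusted p = 0.147). Slc7a15, another member of the Slc7a family, differed in the other direction, at 55.9 and 56.8 CPM in p53+/+ and 36.1 and 27.8 CPM in p53-/- (log2 fold change -0.82, SE 0.184, edgeR adjusted p = 0.125).

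Slc6a4, the serotonin carrier, by which enterocytes and nerve endings clear serotonin, was the transporter with the next lowest adjusted p. It was at 41.5 and 33.2 CPM in p53+/+ and at 109 and 88.5 CPM in p53-/-, 2.64 times as high. The log2 fold change was 1.40 (SE 0.198, 95% interval 0.90 to 1.90, edgeR adjusted p = 0.0592), and over the alternatives the adjusted p ran from 8.83e-10 to 0.306. Leaving out library 7 gave Slc6a4 an adjusted p of 0.0246 and Slc5a11 one of 0.0486, and leaving out library 8 gave 0.0354 and 0.0219. Neuron and glia markers summed to 7.12 and 41.4 CPM in p53+/+ and 8.28 and 9.35 CPM in p53-/-, and their part in the level of Slc6a4 was not tested. Slc6a6, the taurine carrier, was at 381 and 275 CPM against 214 and 166 CPM (log2 fold change -0.78, SE 0.253, edgeR adjusted p = 0.208). Slc6a7, a proline carrier, was at 2.17 and 4.15 CPM against 7.10 and 5.22 CPM (log2 fold change 0.96, edgeR adjusted p = 0.372).

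The Slc38a family, whose members carry glutamine and other small neutral amino acids across the plasma membrane and out of lysosomes, showed small differences. None of its 8 tested genes had an unadjusted p under 0.05, against 18.0% of all genes. Of the 8, 6 overlapped between genotypes, as did 7927 of the 16094 genes tested in all. The other 2 Slc38a genes were separated lower (25%, against 24.4% of all genes), and the family's median log2 fold change was -0.05. The median size of the log2 fold change, without its sign, was 0.21 in this family, against 0.54 over all 64 transporters and 0.35 over all genes. For the 3 other tested carriers of the Slc1a family the median log2 fold change was 0.46. None of them had an unadjusted p under 0.05, against 18.0% of all genes.

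Several transporters have been described as controlled by p53 in other cells, and 7 of 8 such genes were tested. Slc2a9 and Slc1a3 are known as genes that p53 activates, and Slc7a11, Slc2a1, Slc2a4 and Slc6a6 as genes that it represses. For Slc2a3 and Slc7a3, also on the list, no direction of control is given here. Of the 7, 3 were fitted higher and 4 lower, with a median log2 fold change of -0.33, and at an unadjusted p under 0.05, 1 was higher (14.3%, against 10% of all genes) and 2 were lower (28.6%, against 7.92%). These numbers pool genes that p53 activates with genes that it represses. The 2 lower were Slc2a9, which it activates, and Slc6a6, which it represses, and the 1 higher was Slc7a11, which it represses. Slc2a1 and Slc2a4, also repressed by p53, were fitted lower. Slc1a3, a glutamate and aspartate carrier, was at 0.557, 1.10, 0.877 and 1.39 CPM and overlapped. Slc2a4, the insulin-responsive glucose carrier of muscle and fat, was at 4.52 and 34.6 CPM in p53+/+ and 8.33 and 5.22 CPM in p53-/-. Its log2 fold change of -1.53 became 0.58 without library 8 and -2.34 without library 7 (adjusted p = 0.0232, with 0.455 to 0.948 for the other libraries). Adipocyte markers summed to 14.5 and 25.2 CPM in p53+/+ and 3.90 and 5.77 CPM in p53-/-. Of these, 3 of 3 tested were separated lower (24.4% of all genes were), and smooth muscle markers were highest in library 8. The part of these cells in the level of Slc2a4 was not tested. Slc2a3, a glucose carrier of high affinity, was at 0.495, 4.48, 1.97 and 5.57 CPM, with a log2 fold change of 0.60, and of 2.90 without library 8. The untested Slc7a3, an arginine carrier, had 3, 2, 4 and 10 counts.

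Promoter windows of RefSeq (build GRCm38.p6, 250 bases before to 50 after the start) were found for 48 of the 64 tested transporters, in 61 windows. Patterns were searched on both strands, in the window as a whole. The decamer that p53 binds as part of its site was in 8.20% of these windows and in 8.36% of all 32851 windows, with matches in Slc1a3, Slc2a13, Slc2a9, Slc5a5 and Slc7a7. The stress-response pattern TGATGNAA was in 6.56% against 3.97% of all windows, in Slc1a4, Slc7a11 and Slc7a7. Patterns of nuclear factors of the enterocyte, CAAAGT and GTTAAT, were in 8.20% and 6.56% against 14.4% and 7.10% of all windows, and TATAAA was in 11.5% against 13.6%. A match is a description of letters, not a bound site. The 50 bases around the p53 decamer, in capitals, are shown for both genes that p53 is known to activate and that had a match, with the first base of the decamer at position -174 from the start in Slc2a9 (chr5:38483530-38483579, minus strand) and at -191 in Slc1a3 (chr15:8710969-8711018, minus strand).
Slc2a9: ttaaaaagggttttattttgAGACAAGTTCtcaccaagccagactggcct
Slc1a3: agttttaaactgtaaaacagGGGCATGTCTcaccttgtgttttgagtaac

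The 120 bases before the start, 5′ to 3′ on the strand of the gene, are shown for the transporters whose levels differed most relative to their error or stood out in the absorptive route, and for Slc7a11, whose window held the stress-response pattern in both orientations. Capitals mark CAAAGT in Slc6a4 and Slc15a1 and TGATGNAA in Slc7a11, and the windows of Slc5a11 and Slc6a19 held no match in this stretch. They lie at chr7:123214746-123214865 (Slc5a11, plus strand), chr11:76998477-76998596 (Slc6a4, plus strand), chr13:73692637-73692756 (Slc6a19, minus strand), chr14:121505255-121505374 (Slc15a1, minus strand) and chr3:50443614-50443733 (Slc7a11, minus strand).
Slc5a11: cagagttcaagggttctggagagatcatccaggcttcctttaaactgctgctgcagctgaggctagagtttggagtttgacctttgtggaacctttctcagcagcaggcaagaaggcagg
Slc6a4: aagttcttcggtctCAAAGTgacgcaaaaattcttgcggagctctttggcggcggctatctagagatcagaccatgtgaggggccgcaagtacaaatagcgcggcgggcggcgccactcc
Slc6a19: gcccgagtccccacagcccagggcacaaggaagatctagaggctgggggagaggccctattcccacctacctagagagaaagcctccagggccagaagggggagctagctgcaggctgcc
Slc15a1: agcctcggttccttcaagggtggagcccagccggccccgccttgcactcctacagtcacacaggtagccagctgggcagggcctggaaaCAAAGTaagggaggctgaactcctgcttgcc
Slc7a11: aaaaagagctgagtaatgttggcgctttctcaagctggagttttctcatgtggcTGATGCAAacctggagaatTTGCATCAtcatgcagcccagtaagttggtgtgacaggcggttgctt

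A list of 18 further genes (partner genes) was set beside the transporters, holding genes that work with them and 4 relatives outside the symbol rule. Of these, 17 were tested and none was called by edgeR. At an unadjusted p under 0.05, 1 was higher (5.88%, against 10% of all genes) and 6 were lower (35.3%, against 7.92%) in p53-/-, with a median log2 fold change of -0.57, and 11 were separated lower (64.7%, against 24.4%). The 4 relatives made up 3 of those 6 and 4 of those 11. Slc9a3, the exchanger that absorbs sodium for protons in the brush border, was the one higher, at 16.1 and 23.0 CPM in p53+/+ and 105 and 51.0 CPM in p53-/- (log2 fold change 1.99, edgeR adjusted p = 0.105). The relatives, whose symbols end in a letter, were all 4 separated lower (100%, against 24.4% of all genes). Slc6a20a, a proline carrier of the brush border, was at 128 and 187 CPM against 76.6 and 79.0 CPM (log2 fold change -1.01, edgeR adjusted p = 0.125), and Slc5a4b, of the sodium-glucose family, at 13.4 and 13.2 CPM against 4.78 and 3.83 CPM (log2 fold change -1.63, edgeR adjusted p = 0.103). Slc5a4a and Slc5a4b are close paralogs, and so are Slc6a20a and Slc6a20b, so reads of each pair could have been split. Pdzk1, a scaffold that anchors brush border carriers, was at 220.4 and 208 CPM against 111 and 126 CPM (log2 fold change -0.85, edgeR adjusted p = 0.110). Of the 4 disaccharidases, which supply Slc5a1 with sugar, 2 overlapped between genotypes, Sis with a log2 fold change of -0.06 and Mgam with 0.26. The other 2 were separated lower (50%, against 24.4% of all genes). Treh, which splits trehalose, had a log2 fold change of -0.86 (edgeR adjusted p = 0.119). Lct had -0.73, at only 16, 11, 12 and 10 counts.

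Libraries of the same genotype were themselves apart for some transporters. Between libraries 7 and 8, 11 of 64 transporters (17.2%, against 12.3% of all genes) differed by more than 3-fold, and library 8 was the higher for all 11, as it was for 1812 of the 1986 genes that far apart among all tested. Besides Slc2a3, Slc2a4, Slc6a14 and Slc15a3, these included genes named here after their values were seen, such as Slc6a17 (1.11 and 11.1 CPM), Slc7a14 (0.805 and 4.67 CPM) and Slc43a3 (4.64 and 18.8 CPM). Smooth muscle markers summed to 422 CPM in library 7 and 3963 CPM in library 8. Between libraries 9 and 10, 3 transporters (4.69%, against 4.001% of all genes) were over 3-fold apart, Slc1a2, Slc2a6 and Slc7a11, each higher in library 10, as were 486 of the 644 genes that far apart among all tested. Library 10 also held the highest B cell marker level. It was highest as well for the ribosomal RNA gene Rn18s-rs5, at 3190, 4602, 8385 and 45212.5 CPM in libraries 7 to 10. The part of these cells or of ribosomal RNA in either set was not tested. Library 7 held the lowest value for 30 of the 64 transporters and library 10 for 21.

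**Figure D4:**
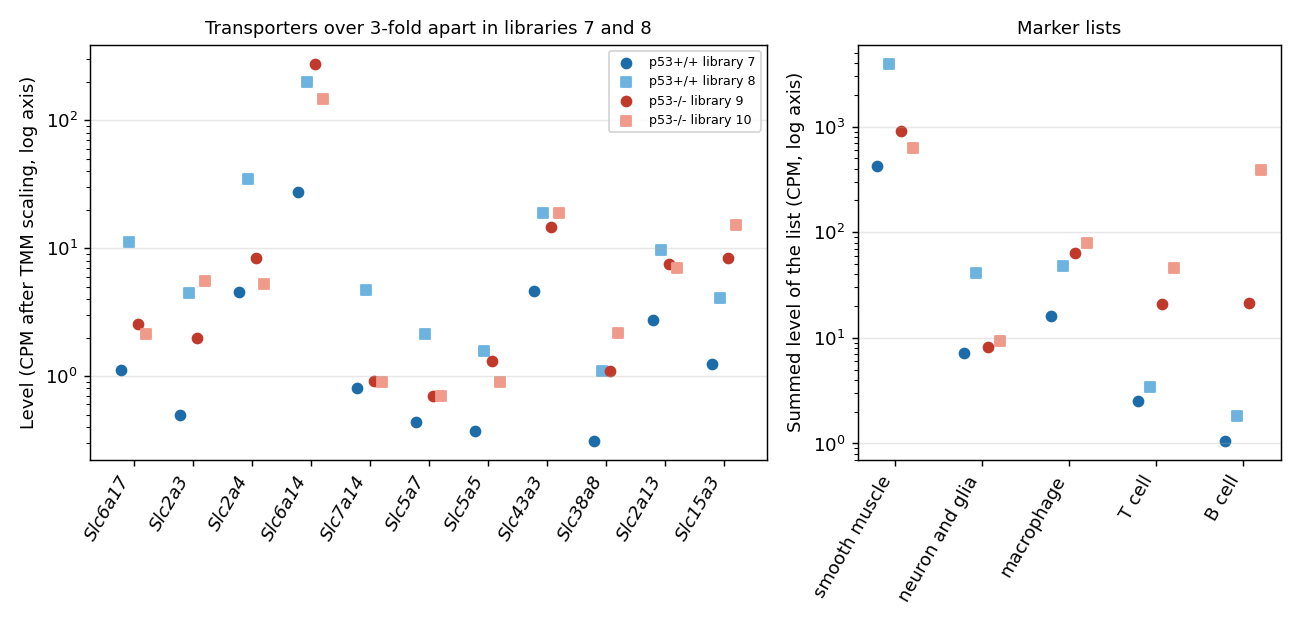
Left, levels in CPM on a log axis of the 11 transporters over 3-fold apart in libraries 7 and 8, with 1 point per library. Right, the summed CPM of marker lists in the same libraries. Library 8 lies above library 7 for each of the 11 and for the smooth muscle markers (422 and 3963 CPM).

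The 25 transporters not tested were counted rarely. There were 7 with 0 counts in all 4 libraries, which at these totals allows up to 3 counts in a library, and 24 had at most 30 counts in every library. Slc36a2, a proton-driven carrier of small amino acids named here after its values were seen, was the exception with 6, 4, 3 and 77 counts. Among those at 0 were the noradrenaline carrier Slc6a2 and the glycine carrier Slc6a5. The dopamine carrier Slc6a3 had 5, 0, 0 and 0 counts.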

How the data were processed

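RNA-seq of whole SI gave 4 libraries, 2 per genotype. The values deposited by the authors are raw read counts, without normalization, for 56748 genes. The submitters' processing notes name fastp, HISAT2 2.0.5, featureCounts 1.5.0-p3 and DESeq2 1.20.0; the genome build, annotation and strand setting are not given in the sources used here, and reads of paralogs could have been split. Library totals were 17430246 and 15005479 counts (p53+/+, libraries 7 and 8) and 22173164 and 19811346 counts (p53-/-, libraries 9 and 10). Column names give the genotype but not the replicate number of the labels.

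From these counts, libraries were scaled by TMM, genes with low counts were removed by filterByExpr, and the 16094 genes left were tested, two-sided, with the quasi-likelihood test of edgeR 4.0.16 (R 4.3.3, limma 3.58.1), with p-values adjusted by the Benjamini-Hochberg method over all tested genes and a threshold of 0.05. The standard error was the size of the log2 fold change divided by the square root of F. CPM are counts scaled to a common TMM-adjusted library size and are comparable between libraries for 1 gene. Levels of different genes were compared as CPM per kilobase of merged exons in GENCODE M21, which held a length for 89 of 89 transporters. Promoters were taken from RefSeq, and 65 of 89 transporters had a window. Scripts were tested on simulated data.

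The naming rule took the absorptive carriers, the transporters linked to p53 that were tested, and any past the threshold. It also took the 5 largest differences in each direction among separated genes whose log2 CPM averaged 1 or more. Other transporters in the text lie outside this rule, and not all of them are marked as named after their values were seen. Members, lists and pairs were chosen with earlier results of these data known. Alternatives were scaling by library size, by RLE or by upper quartile, DESeq2 1.42.0, the likelihood ratio test of edgeR, filters of none or of 10 counts in every library, immune receptor segments left out, other thresholds, and each library left out in turn. Counts of 0 and their floors cover counting error only. Some genes are not reported here.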

Additional observations from a re-analysis of the deposited data

How the results depend on the processing

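No transporter was called with library size only, RLE or upper-quartile factors, at least 10 counts in every library, immune receptor segments left out, or an adjusted p of 0.01. The number called higher and lower was 5 and 7 (DESeq2), 1 and 4 (likelihood ratio), 10 and 7 (unfiltered), and 1 and 1 at an adjusted p of 0.1. With a library left out it ran from 0 to 4 higher and 0 to 3 lower: 2 and 3 without library 7, 4 and 2 without library 8, and 0 without library 9 or library 10. Partner genes called higher and lower numbered 1 and 5 (DESeq2), 1 and 4 (likelihood ratio) and 1 and 5 (unfiltered), and 0 to 1 in either direction with a library left out. Role groups with a called member numbered 10 (DESeq2), 5 (likelihood ratio) and 11 (unfiltered). A group was counted if any 1 member was called, and the transporters linked to p53 formed a further group although they also belong to others. The cause was not tested. Under each other scaling the all-gene median stayed within 0.1 (log2) of its value.

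Medians of the log2 fold change with a library left out ran from -0.0796 to 0.30 for all transporters and from -0.72 to -0.40 for partner genes. By role, they ran from 0.14 to 0.70 for sugar uptake, -0.00156 to 0.28 for brush border amino acid uptake, 0.40 to 0.57 for basolateral exit, -0.28 to 0.52 for other facilitative sugar carriers, -0.48 to 0.39 for other Slc5a carriers, 0.65 to 1.09 for cationic amino acid and cystine carriers (0.93 with no filter), -0.20 to 0.13 for Slc38a, -0.13 to 0.96 for neurotransmitter, taurine and creatine carriers, 0.12 to 1.01 for Slc1a, -0.95 to 0.15 for the remaining members and -0.51 to 0.58 for transporters linked to p53. Among genes chosen by the naming rule, the direction of 6 turned with a library left out, over ranges of -0.00156 to 0.28 for Slc36a1, -0.033 to 0.26 for Slc5a1, -0.0423 to 0.20 for Slc7a9, -0.53 to 0.93 for Slc2a2, -2.34 to 0.58 for Slc2a4 and -0.30 to 2.90 for Slc2a3. Of the other transporters the text names, Slc1a2, Slc2a13, Slc5a5, Slc6a8, Slc6a17, Slc7a14, Slc15a4 and Slc43a3 also turned. A lone library of a genotype was assumed to vary like those of the other genotype, and the genes that pass the filter change. No paired analysis was possible because the columns carry library numbers in place of the replicate numbers of the labels.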
